A study of Mus musculus with 20 samples.

Results

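Serine and one-carbon metabolism was followed here through 10 genes, chosen by symbol: Phgdh, Psat1, Psph, Shmt1, Shmt2, Mthfd1, Mthfd2, Mthfd2l, Mthfd1l and Aldh1l2. All 10 were listed in both experiments of the series, among 19716 genes listed in at least 1 of them. Shmt2 led the choice, because it was the 1 gene, of 15704 tested (0.00637%), that passed the test across all genes as lower in Atf6-/- than in Atf6+/+ retinas after oxygen-induced retinopathy, where 4 passed as higher (0.0255%). Its values in that contrast, and those of the other members, are therefore given as a description with no test. In the deposited tables the genes carry the NCBI gene numbers 236539 (Phgdh), 107272 (Psat1), 100678 (Psph), 20425 (Shmt1), 108037 (Shmt2), 108156 (Mthfd1), 17768 (Mthfd2), 665563 (Mthfd2l), 270685 (Mthfd1l) and 216188 (Aldh1l2).

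Whole mouse retinas were measured by bulk RNA-Seq in 20 libraries, 5 in each of 4 groups. In oxygen-induced retinopathy (OIR), pups and their mothers were kept in 75% oxygen from P7 to P12 and then in room air, where new vessels sprout, and retinas were taken at P17 from Atf6+/+ (wild-type) and Atf6-/- mice. In the second experiment wild-type mice at P30 received in both eyes an intravitreal injection of 1 µL of saline or of 10 µM Ceapin-A7, a small molecule that blocks the activation of ATF6, and retinas were taken after 24 h. All mice were on a C57BL/6J background in the study's methods. The study describes the Atf6-/- line as one in which an early stop codon, in the fourth exon, leaves no Atf6 protein. The methods count whole retinas as the samples, and whether both retinas of an animal were used is not given in the sources used here. The labels call the saline group PBS and give it the same range of vehicle as Ceapin-A7. The methods give the groups unlike amounts, so drug and vehicle cannot be told apart where they differ.

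Serine is made from a glycolytic intermediate in 3 steps, by PHGDH, PSAT1 and PSPH in turn. Serine hydroxymethyltransferase, SHMT1 in the cytosol and SHMT2 in mitochondria, moves a carbon from serine onto tetrahydrofolate and leaves glycine. MTHFD2 and MTHFD2L oxidise the carried unit in mitochondria, MTHFD1L releases it as formate, ALDH1L2 burns it to carbon dioxide, and MTHFD1 uses formate in the cytosol for purines, thymidylate and methionine. In the retina serine also feeds lipid and glycine supply, and several of these genes are known targets of ATF4, the transcription factor of the amino acid and integrated stress responses. ATF6 is the endoplasmic reticulum stress sensor whose released fragment acts as a transcription factor.

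The 250 bases before the annotated start of transcription are shown for 4 members, in RefSeq sequence of GRCm38.p6. They are Shmt2 and its cytosolic counterpart Shmt1, the highest and the lowest of the members, and Mthfd2 and Phgdh, the members that varied most among the saline libraries. The Shmt2 window lies at chr10:127522445-127522694 (minus strand), with the capitals marking the palindrome bound by NRF1 (GCGCA and, without a gap, its reverse complement TGCGC). In Shmt1 (chr11:60811266-60811515, minus strand), Mthfd2 (chr6:83317605-83317854, minus strand) and Phgdh (chr3:98339970-98340219, minus strand) the capitals mark CCAAT or its reverse complement ATTGG, the letters bound by NF-Y.
Shmt2: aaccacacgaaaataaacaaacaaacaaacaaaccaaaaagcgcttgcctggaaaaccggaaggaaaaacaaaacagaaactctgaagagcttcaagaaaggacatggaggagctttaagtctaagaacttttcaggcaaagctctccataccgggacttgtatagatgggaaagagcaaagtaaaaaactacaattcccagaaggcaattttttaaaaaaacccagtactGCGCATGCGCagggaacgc
Shmt1: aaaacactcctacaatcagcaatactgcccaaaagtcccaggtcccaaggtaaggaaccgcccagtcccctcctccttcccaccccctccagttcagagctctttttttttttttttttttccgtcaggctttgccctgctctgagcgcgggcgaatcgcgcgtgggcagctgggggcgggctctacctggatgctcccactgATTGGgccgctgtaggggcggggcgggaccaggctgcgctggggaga
Mthfd2: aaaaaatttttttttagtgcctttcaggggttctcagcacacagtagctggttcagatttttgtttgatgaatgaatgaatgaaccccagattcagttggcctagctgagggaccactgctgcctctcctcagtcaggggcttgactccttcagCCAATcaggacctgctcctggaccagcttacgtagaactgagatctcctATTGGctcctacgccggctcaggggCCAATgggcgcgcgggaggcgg
Phgdh: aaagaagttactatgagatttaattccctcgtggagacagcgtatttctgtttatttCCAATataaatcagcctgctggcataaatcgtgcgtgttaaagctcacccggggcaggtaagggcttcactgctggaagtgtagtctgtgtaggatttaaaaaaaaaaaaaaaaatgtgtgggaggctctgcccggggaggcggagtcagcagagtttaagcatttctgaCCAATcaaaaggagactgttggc

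Promoter windows were found for 9 of the 10 members, with 2 windows for Psat1, so 10 windows were searched on both strands for 9 motifs. No member window held ERSE (CCAAT, 9 free bases and CCACG), ERSE-II (ATTGG, 1 free base and CCACG) or the UPRE (TGACGTGG), the elements tied to ATF6, which stood in 0.113%, 0.0304% and 0.563% of all 32851 windows. None held the ATF4 element (CARE, TGATGNAA, 3.45% of all windows), the CRE (TGACGTCA, 1.55%) or the E-box (CACGTG, 6.02%). The NRF1 palindrome stood in the Shmt2 window only, 19 bases before the start at its first base (position -19), and in 0.782% of all windows. It was added to the motifs searched with the Shmt2 sequence in view. The CCAAT pentamer, which is also a part of ERSE, stood in 6 of the 10 member windows and in 33.8% of all windows. In Mthfd2 it began at positions -96, -47 and -22, in Phgdh at -193 and -23, and in Shmt1 at -47. The hypoxia element core (ACGTG, 16.6% of all windows, contained in the E-box and the UPRE) stood in Psph and Mthfd1l. These are matches of letters in a short window, not sites shown to be bound.

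FPKM is a fragment count divided by transcript length and library size, so levels can be set side by side between genes. Saline replicates 4 and 5 stood apart from the other 8 libraries at P30, so the members' differences after Ceapin-A7, and the main P30 counts, are given with and without them. Both were above all 8 others in 4 of the 10 members (40%), in 20 of the 22 genes of the ATF4 list (90.9%) and in 15.5% of the 15408 genes tested. Their summed rod photoreceptor markers were 17800 and 16800 FPKM against 22400 to 24900 in saline replicates 1 to 3, and their summed Müller glia markers were 1820 and 1890 against 2070 to 2700. The rod markers, between 16800 and 24900 FPKM in all 20 libraries, are those of retina. Lens fibre markers ranged from 5.83 to 9620 FPKM between libraries, with Atf6+/+ OIR at 9.24 to 529 and Atf6-/- OIR at 5.83 to 9.40. The part of any of these markers in the results below was not tested. In bulk retina, fewer cells of a type and less RNA per cell cannot be told apart. Atf6 itself did not separate the genotypes, with 14.9 ± 0.618 FPKM in Atf6+/+ and 15.2 ± 1.51 in Atf6-/- OIR retinas (SD, n = 5 each), so its level does not check the labels.

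Shmt2 was the highest of the 10 members in every group, by mean FPKM. In Atf6+/+ OIR retinas it was at 76.09, 64.65, 69.67, 71.23 and 60.61 FPKM in replicates 1 to 5. In Atf6-/- OIR retinas it was at 31.67, 29.89, 33.05, 25.48 and 39.61 FPKM. At P30 it was at 23.81, 21.38, 23.34, 33.19 and 34.13 FPKM after saline and at 21.53, 21.62, 23.47, 25.20 and 22.56 FPKM after Ceapin-A7. All 5 Atf6+/+ OIR libraries, of the arm that entered the choice of Shmt2, were above the 15 others. The saline range overlapped with those of Atf6-/- OIR and Ceapin-A7. The lowest Atf6-/- OIR library was at 25.48 FPKM and the highest Ceapin-A7 library at 25.20 FPKM. Groups of unlike experiments also differ in age, oxygen history and injection, which cannot be told apart. The share of all genes with such separations was not computed. Between Atf6+/+ OIR and saline, 40.4% of all genes did not overlap. Shmt2 made up 51.8% to 58.6% of the summed FPKM of the 10 members in Atf6+/+ OIR retinas, 30.6% to 45.8% in Atf6-/- OIR retinas, 23.8% to 28.6% after saline and 24.1% to 28.1% after Ceapin-A7. The other 9 members summed to 50.8 to 66.4 FPKM in Atf6+/+ and 46.9 to 64.3 FPKM in Atf6-/- OIR retinas.

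**Figure D1:**
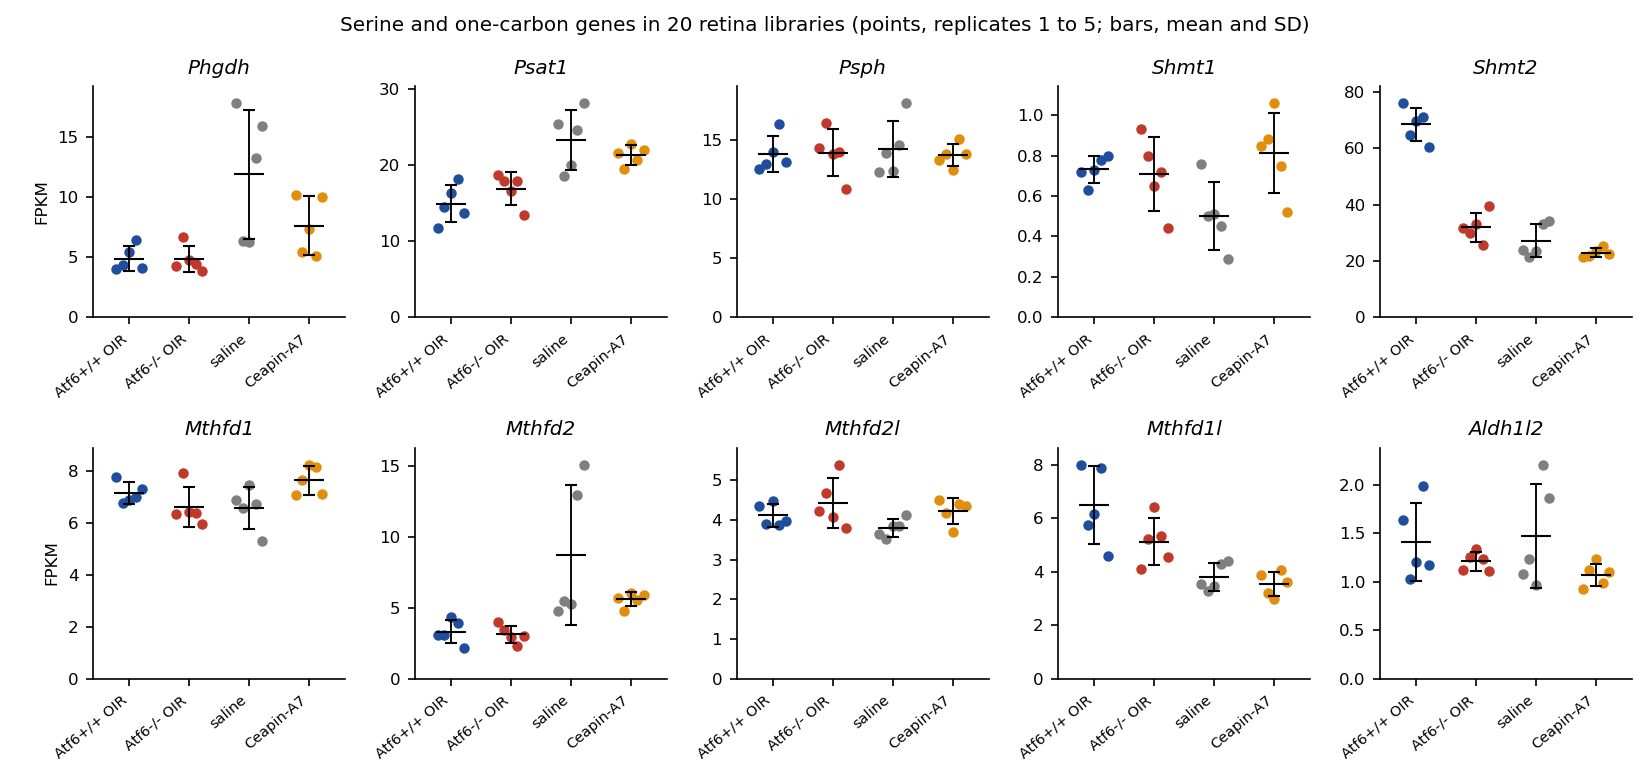
FPKM (y axis, from 0) of the 10 genes in the 4 groups (x axis), with a point for each library in the order of replicates 1 to 5 and bars for the mean and SD of 5 libraries. Shmt2 is above 60 FPKM in all Atf6+/+ OIR libraries and below 40 FPKM in all others, and saline replicates 4 and 5 are the highest points for Mthfd2.

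Shmt1, the cytosolic enzyme, was the lowest of the 10 in every group, with means between 0.502 and 0.812 FPKM. Between the extremes, Psat1 and Psph ranked next to Shmt2 in all 4 groups, and Aldh1l2 was next to last in all 4. In Atf6+/+ OIR retinas Shmt2 did not overlap with Psat1, the next in order, and Psph did not overlap with Mthfd1, but the ranges of Mthfd1, Mthfd1l, Phgdh, Mthfd2l and Mthfd2 overlapped from each to the next. After saline and after Ceapin-A7 the ranges of Shmt2 and Psat1 overlapped.

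The comparison of Atf6-/- with Atf6+/+ OIR retinas asks what the loss of Atf6 changes at the peak of new vessel growth. Shmt2 was 68.5 ± 5.99 FPKM in Atf6+/+ and 31.9 ± 5.15 FPKM in Atf6-/- retinas (SD, n = 5 each). The fitted log2 fold change was -1.09 (SE 0.11), or 2.13 times lower. The groups did not overlap, as for 1.52% of the 15704 genes compared, and Shmt2 was chosen on this contrast. The other 9 members had log2 fold changes between -0.30 and 0.21, and the ranges of both groups overlapped in all 9. The median over the 10 members was -0.05, against 0.0028 over all genes.

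Among the serine-making enzymes, Phgdh was at 4.85 ± 1.05 and 4.81 ± 1.09 FPKM in Atf6+/+ and Atf6-/- OIR retinas, Psph at 13.8 ± 1.51 and 13.9 ± 1.98, and Psat1 at 14.9 ± 2.46 and 16.9 ± 2.12 (SD, n = 5 each). The log2 fold changes were 0.0038 (SE 0.15) for Phgdh, 0.02 (SE 0.09) for Psph and 0.21 (SE 0.11) for Psat1. Of the mitochondrial enzymes downstream of Shmt2, Mthfd2 was at 3.31 ± 0.837 and 3.12 ± 0.622 FPKM and Mthfd2l at 4.12 ± 0.282 and 4.44 ± 0.628. Mthfd1l, the formate-releasing step, was at 6.48 ± 1.46 FPKM in Atf6+/+ and 5.13 ± 0.877 in Atf6-/- OIR retinas. Its log2 fold change was -0.30 (SE 0.15), and -0.13 (SE 0.15) with array weights, which give less weight to libraries that vary more. Aldh1l2 was at 1.41 ± 0.399 and 1.21 ± 0.0973 FPKM. The cytosolic Shmt1 and Mthfd1 differed by -0.06 (SE 0.16) and -0.10 (SE 0.08) on the log2 scale.

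**Figure D2:**
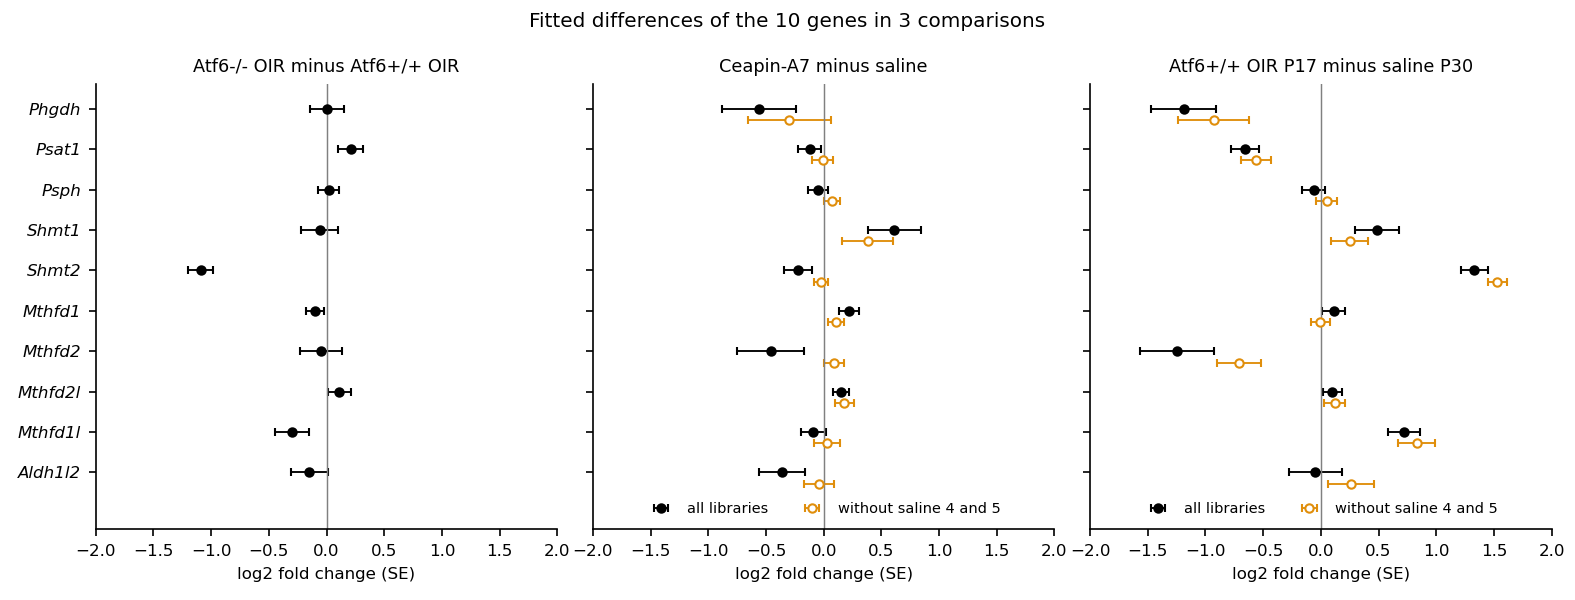
Log2 fold change (x axis, on the log2(FPKM + 0.1) scale) with its SE for the 10 genes (y axis) in 3 comparisons, with open points for the fit without saline replicates 4 and 5. Shmt2 lies at -1.09 in OIR, at -0.22 after Ceapin-A7 and at 1.33 between Atf6+/+ OIR at P17 and saline at P30.

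The summed erythroid markers, those of blood in the tissue, were 2110, 866, 2390, 2500 and 380 FPKM in Atf6+/+ OIR replicates 1 to 5. There they were lowest in the 2 libraries with the least Shmt2, but replicate 1, with the most Shmt2, did not have the most of them. In Atf6-/- OIR libraries they were 407, 1360, 1240, 1110 and 804 FPKM and did not follow Shmt2, which was lowest in replicate 4 and highest in replicate 5. Their part in the Shmt2 difference was not tested.

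Summed endothelial markers were 122 to 193 FPKM in Atf6+/+ and 116 to 164 FPKM in Atf6-/- OIR retinas, microglia and macrophage markers 114 to 175 and 99.5 to 134, and Müller glia markers 2650 to 3010 and 2910 to 3200. Rod markers were 19300 to 21900 FPKM in Atf6+/+ and 20800 to 23600 in Atf6-/- OIR retinas, retinal pigment epithelium markers 100 to 241 and 127 to 429, and astrocyte markers 248 to 342 and 226 to 293. No list had a marker at 0 in all libraries of a group. The ranges of both genotypes overlapped in the lists of this paragraph, and their part in the differences was not tested. Log2 fold changes in this contrast went with transcript GC content over all genes (Spearman's rho -0.479 across genes, which are not independent), and with a GC correction Shmt2 was at -0.98 (SE 0.09).

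The protein-coding genes next to Shmt2 in the RefSeq order of GRCm38.p6 are R3hdm2, Stac3 and Ndufa4l2 on one side and Nxph4, Lrp1 and Stat6 on the other. Ndufa4l2, a mitochondrial protein gene induced by hypoxia, shares 32 bases with the end of Shmt2 in that annotation, and whether the authors counted by strand is not given in the sources used here. It was at 143.53, 105.27, 101.07, 94.46 and 101.04 FPKM in Atf6+/+ and at 55.68, 73.19, 100.20, 65.83 and 124.77 FPKM in Atf6-/- OIR retinas. Its groups overlapped, with a log2 fold change of -0.41 (SE 0.21, adjusted p = 0.417 by limma). Nxph4, which encodes a secreted neurexin ligand, was at 29.8 ± 7.87 and 21.2 ± 7.81 FPKM (SD, n = 5 each; log2 fold change -0.50, SE 0.23, adjusted p = 0.396 by limma). The other 4 neighbours had log2 fold changes between -0.35 and -0.08 and adjusted p-values of at least 0.433, and both groups overlapped in all 6 neighbours. With array weights, under which 17.7% of all genes were called, Nxph4 (-0.60, adjusted p = 0.0375 by limma) and Lrp1 (-0.53, adjusted p = 0.028 by limma) were among them. At P30, Ndufa4l2 was at 3.90 ± 0.758 FPKM after saline and 3.94 ± 0.512 after Ceapin-A7, and Nxph4 at 13.8 ± 2.96 and 11.2 ± 0.482 (SD, n = 5 each).

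**Figure D3:**
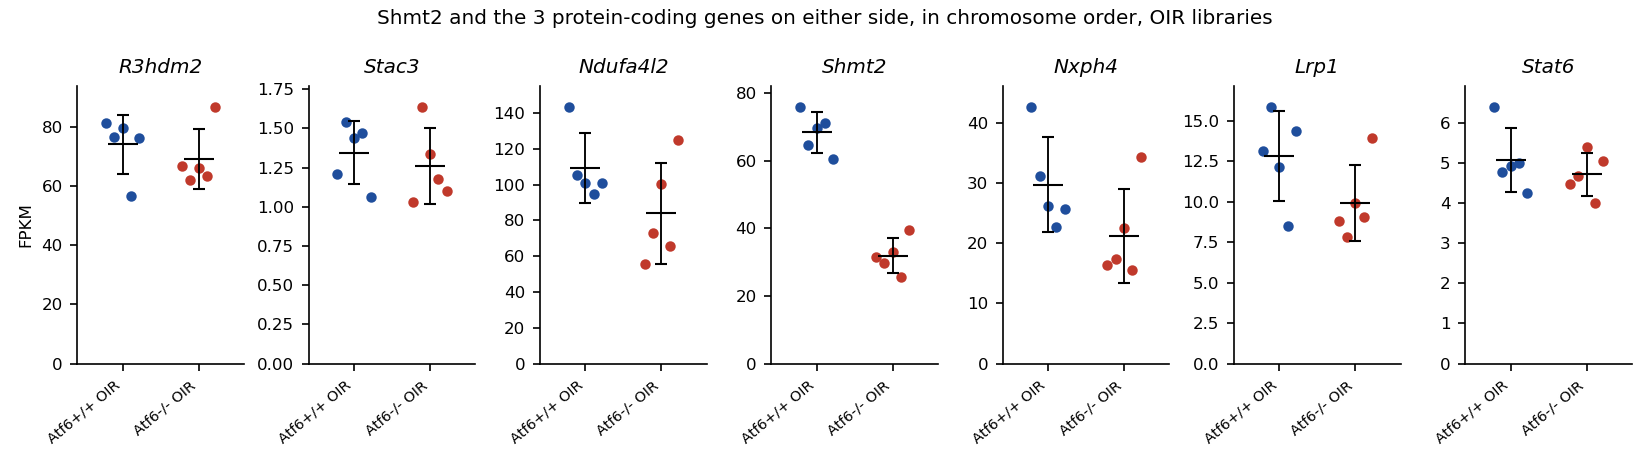
FPKM (y axis, from 0) of Shmt2 and the 3 protein-coding genes on either side, in chromosome order, in the 5 Atf6+/+ and 5 Atf6-/- OIR libraries (points, with mean and SD). The genotypes separate for Shmt2 and overlap for the other 6 genes.

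Around the members, 78 of 84 listed partner genes of the pathway were above the filter on low values and were tested in OIR with limma over all genes. None of the 78 passed an adjusted p of 0.05, where 0.0318% of all genes did, and 9 (11.5%) had an unadjusted p of 0.05 or less, where 12.7% of all genes did. Of these, 6 were higher and 3 lower in Atf6-/- retinas, with 6.92% and 5.83% of all genes. With array weights 15 of the 78 (19.2%) and 17.7% of all genes were called, so the count of 0 depends on equal weights. The gene with the smallest p was Slc7a10, the Asc-1 exchanger of serine and small neutral amino acids. It was at 0.14, 0.18, 0.26, 0.23 and 0.35 FPKM in Atf6+/+ and at 0.32, 0.58, 0.67, 0.77 and 0.63 FPKM in Atf6-/- OIR retinas, low values whose ranges overlapped between 0.32 and 0.35 FPKM (log2 fold change 1.07, SE 0.23, adjusted p = 0.277 by limma). At this low level the fold change moved with the pseudocount, to 0.37 with 1 FPKM and 1.34 with 0.01 FPKM added.

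In the other lists, the smallest p in OIR belonged to Ddit3 among the ATF4 and amino acid response genes, with 62.7 ± 6.54 FPKM in Atf6+/+ and 51.0 ± 3.30 in Atf6-/- retinas (log2 fold change -0.28, SE 0.08, adjusted p = 0.357 by limma, n = 5 each). DDIT3, also called CHOP, is a transcription factor of stress responses. Its groups did not overlap, with the lowest Atf6+/+ library at 54.82 and the highest Atf6-/- library at 54.39 FPKM. The ATF4 list had 5 genes fitted higher and 17 fitted lower, with a median log2 fold change of -0.17, where the median of all genes was 0.0028. With equal weights none of its 22 genes was called. An unadjusted p of 0.05 or less by limma was found for 3 (13.6%), where 12.7% of all genes had one. The part of transcript GC content in this split was not tested. Slc19a1, the reduced folate carrier, did not overlap either, at 12.4 ± 0.751 and 13.9 ± 1.04 FPKM (log2 fold change 0.18, SE 0.08, adjusted p = 0.386 by limma, n = 5 each). The S-adenosylhomocysteine hydrolase-like gene Ahcyl1 (0.15), Gmps of guanine nucleotide synthesis (0.23), the dihydrolipoamide dehydrogenase Dld (0.17), thymidylate synthase Tyms (0.24) and the mitochondrial tRNA modifier Mto1 (0.11) had the smallest p in their lists, none with an adjusted p under 0.364. Of the genes named from these lists, array weights gave calls to Slc7a10 (1.03, adjusted p = 0.025 by limma), Gmps (0.30, adjusted p = 0.0257 by limma), Ahcyl1 (0.20, adjusted p = 0.0264 by limma), Dld (0.25, adjusted p = 0.0326 by limma) and Ddit3 (-0.25, adjusted p = 0.0327 by limma). Array weights called 17.7% of all genes. The named genes had the smallest p of their lists in this same contrast, so these calls are no independent evidence. Over all alternatives that kept every library, Gmps ranged from 0.11 to 0.30, Ahcyl1 from 0.11 to 0.20 and Dld from 0.07 to 0.25. Slc19a1 ranged from 0.10 to 0.26 and Ddit3 from -0.33 to -0.25.

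**Figure D4:**
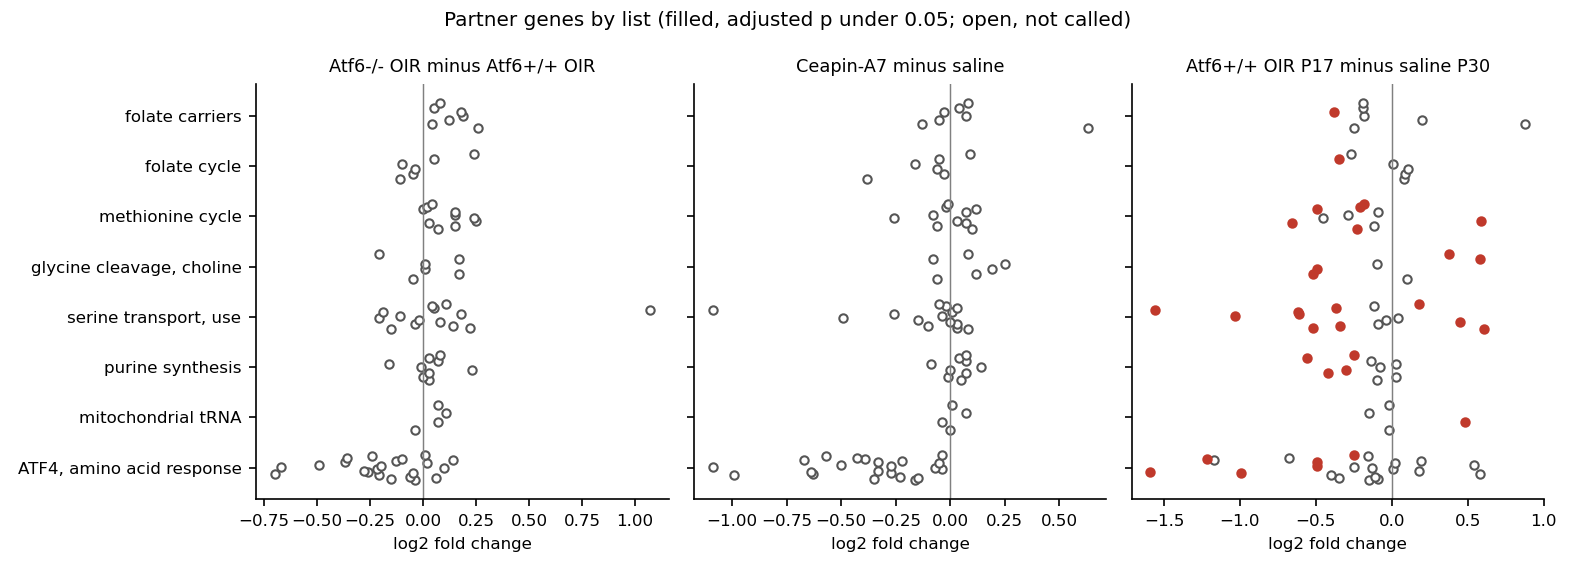
Log2 fold change (x axis) of each partner gene by list (y axis) in the 3 comparisons, filled where the adjusted p was under 0.05. None of the 78 genes is filled in OIR or after Ceapin-A7, and 33 of 78 are filled between Atf6+/+ OIR at P17 and saline at P30.

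Ceapin-A7 against saline asks what blocking ATF6 activation does to these genes in the P30 retina, in libraries that played no part in the choice of Shmt2. None of the 10 members passed an adjusted p of 0.05 by limma, as for 0% of the 15408 genes tested, and 2 of 10 had an unadjusted p of 0.05 or less, where 10.4% of all genes did (5.04% higher and 5.32% lower). The groups overlapped in all 10 members, and did not in 1.34% of all genes. Shmt2 was at 27.2 ± 6.00 FPKM after saline and 22.9 ± 1.52 after Ceapin-A7 (SD, n = 5 each), with overlapping groups, a log2 fold change of -0.22 (SE 0.12) and an adjusted p of 0.506 by limma. Without saline replicates 4 and 5 its log2 fold change was -0.02 (SE 0.06, adjusted p = 0.993 by limma).

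The 2 members with an unadjusted p of 0.05 or less were Shmt1 and Mthfd1. Shmt1 was at 0.76, 0.50, 0.51, 0.45 and 0.29 FPKM after saline and at 0.85, 0.88, 1.06, 0.75 and 0.52 FPKM after Ceapin-A7 (log2 fold change 0.61, SE 0.23, adjusted p = 0.472 by limma). Mthfd1 was at 6.85, 6.55, 7.46, 6.71 and 5.28 FPKM and at 7.05, 7.62, 8.23, 8.13 and 7.11 FPKM (log2 fold change 0.22, SE 0.09, adjusted p = 0.472 by limma). Saline replicate 5 was the lowest P30 library for both, and both pairs of groups overlapped. Without saline replicates 4 and 5 the log2 fold changes were 0.38 (SE 0.22) and 0.11 (SE 0.07), with unadjusted p-values of 0.115 and 0.136 in the limma fit.

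Mthfd2, the mitochondrial dehydrogenase, was at 4.76, 5.50, 5.27, 12.97 and 15.09 FPKM after saline and at 5.71, 4.76, 6.06, 5.54 and 5.87 FPKM after Ceapin-A7. Saline replicates 4 and 5 were above all others, which overlapped. The log2 fold change was -0.46 (SE 0.29, adjusted p = 0.560 by limma), and 0.09 (SE 0.09) without those 2 libraries. Aldh1l2 was at 2.21 and 1.87 FPKM in these 2 libraries, against 0.97 to 1.24 in saline replicates 1 to 3 and 0.93 to 1.23 after Ceapin-A7. Mthfd1l was at 4.3 and 4.4 against 3.26 to 3.55 and 2.99 to 4.07 FPKM, and Shmt2 at 33.19 and 34.13 against 21.38 to 23.81 and 21.53 to 25.20 FPKM. The log2 fold changes of Aldh1l2 and Mthfd1l were -0.36 (SE 0.20) and -0.09 (SE 0.11), and -0.04 (SE 0.13) and 0.03 (SE 0.11) without saline replicates 4 and 5.

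Phgdh, the first enzyme of serine synthesis, varied otherwise. It was at 17.82, 6.36, 6.25, 13.22 and 15.91 FPKM after saline and at 10.19, 5.45, 7.33, 5.09 and 10.02 FPKM after Ceapin-A7, so that saline replicate 1 was the highest and both groups held low and high libraries. Its log2 fold change was -0.56 (SE 0.32, adjusted p = 0.524 by limma), and -0.30 (SE 0.36) without saline replicates 4 and 5. Lens fibre markers were at 5340, 1950, 8.60, 1910 and 26.7 FPKM after saline and at 9620, 98.3, 785, 91.5 and 4490 FPKM after Ceapin-A7. In each group the library with the most lens markers, replicate 1, had the most Phgdh, while saline replicate 5 had 26.7 FPKM of lens markers and 15.91 FPKM of Phgdh. Their part was not tested. Psat1, Psph and Mthfd2l had log2 fold changes of -0.12 (SE 0.10), -0.05 (SE 0.09) and 0.15 (SE 0.07). They were -0.01 (SE 0.09), 0.07 (SE 0.07) and 0.18 (SE 0.08) with saline replicates 4 and 5 left out. Mthfd2l was then the 1 member of 10 with an unadjusted p of 0.05 or less (0.0488 in the limma fit, adjusted p = 0.99), where 5.01% of all genes had one.

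**Figure D5:**
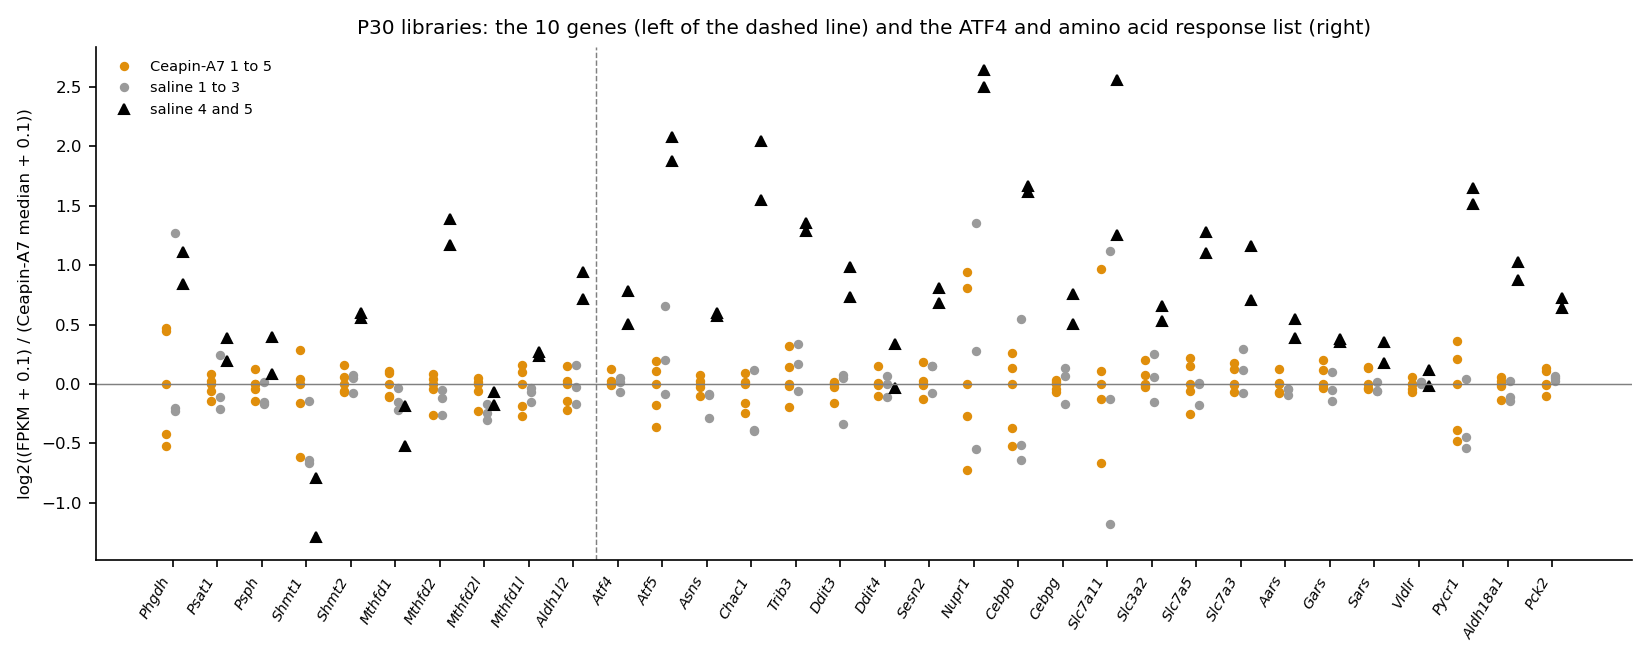
Log2 ratio of each P30 library to the Ceapin-A7 median (y axis, with 0.1 FPKM added to both) for the 10 members and the 22 ATF4 and amino acid response genes (x axis). Triangles, saline replicates 4 and 5, lie above all 8 other libraries in 4 members and in 20 of the 22 ATF4 list genes.

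None of the 78 partner genes tested passed an adjusted p of 0.05 after Ceapin-A7, as for 0% of all genes. An unadjusted p of 0.05 or less by limma was found for 9 (11.5%), where 10.4% of all genes had one, with 2 higher (5.04% of all genes) and 7 lower (5.32%). With saline replicates 4 and 5 left out, 3 of 78 (3.85%) and 5.01% of all genes did. All 22 genes of the ATF4 list were fitted lower after Ceapin-A7, with a median log2 fold change of -0.33, where the median of all genes was 0.0007. Leaving out those 2 libraries, 13 were fitted higher and 9 lower, with a median of 0.02. Atf5, a stress-response transcription factor, was at 17.60, 24.04, 14.37, 56.32 and 64.80 FPKM after saline and 11.89 to 17.49 after Ceapin-A7 (log2 fold change -0.99, SE 0.37, adjusted p = 0.472 by limma). Without the 2 libraries Atf5 was at -0.32 (SE 0.17). Thus 4 members and 20 of the 22 ATF4 list genes were highest in the same 2 saline libraries, and what set those libraries apart was not tested.

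In the other lists, the smallest p after Ceapin-A7 belonged to the amino acid transporter Slc38a2, with 31.4 ± 4.73 FPKM after saline and 26.0 ± 1.79 after Ceapin-A7 (SD, n = 5 each; log2 fold change -0.26, SE 0.09, adjusted p = 0.472 by limma). Mat2b, a regulatory subunit of S-adenosylmethionine synthesis, and Dld were both at 0.12 (SE 0.05). Slc7a10, named after its values were seen, was at 1.10, 1.16, 0.80, 0.84 and 0.49 FPKM after saline and at 0.77, 0.20, 0.08, 0.40 and 0.63 FPKM after Ceapin-A7, with overlapping groups. Its log2 fold change was -1.09 (SE 0.40, unadjusted p = 0.0197, adjusted p = 0.472 by limma), and -1.34 (SE 0.47, unadjusted p = 0.0179, adjusted p = 0.99 by limma) without saline replicates 4 and 5. Folr1, a folate receptor also high in pigment epithelium, was at 0.63 (SE 0.47), Aldh1l1, the cytosolic formyltetrahydrofolate dehydrogenase of glia, at -0.38 (SE 0.20), Impdh2 at -0.09 (SE 0.05) and Mto1 at 0.07 (SE 0.05). With saline replicates 4 and 5 left out, Slc38a2 was at -0.15 (SE 0.08), Mat2b at 0.06 (SE 0.04), Dld at 0.09 (SE 0.05), Folr1 at 0.08 (SE 0.47), Aldh1l1 at -0.34 (SE 0.22), Impdh2 at -0.03 (SE 0.05) and Mto1 at 0.08 (SE 0.05).

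The wild-type arms of the experiments, Atf6+/+ OIR at P17 and saline at P30, differ in age, oxygen history, injection and experiment, which cannot be told apart, and the OIR arm is the one that entered the choice of Shmt2. Its high Shmt2 is therefore given here as a description with no test and is no independent evidence: Shmt2 was 2.52 times higher than after saline (log2 fold change 1.33, SE 0.12), and 1.53 (SE 0.08) on the log2 scale without saline replicates 4 and 5. Between the arms 55.5% of the 15655 genes tested passed an adjusted p of 0.05 by limma, and 5 of the other 9 members did, a share near that of all genes. With saline replicates 4 and 5 left out, 4 of these 9 and 51.5% of all genes did. Higher in Atf6+/+ OIR retinas were Mthfd1l and Shmt1 (27.8% of all genes), and lower were Mthfd2, Phgdh and Psat1 (27.7% of all genes). Of the 9, the groups did not overlap in Mthfd1l, Mthfd2 and Psat1, as in 40.4% of all genes.

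Of the synthesis enzymes, Phgdh and Psat1 were lower at P17 in OIR. Phgdh was at 4.03, 4.33, 5.41, 6.43 and 4.06 FPKM in Atf6+/+ OIR retinas, with only replicate 4 above the 2 low saline libraries at 6.36 and 6.25 FPKM (log2 fold change -1.19, SE 0.28, adjusted p = 0.00363 by limma). Psat1 was at 11.76, 14.50, 16.35, 18.14 and 13.62 FPKM against 25.43, 18.60, 19.95, 24.55 and 28.13 FPKM after saline, with no overlap (log2 fold change -0.66, SE 0.12, adjusted p = 0.000693 by limma). Psph, the last step, was at 13.8 ± 1.51 and 14.2 ± 2.37 FPKM and was not called (adjusted p = 0.649 by limma, n = 5 each). Phgdh was at -0.93 (SE 0.31) and Psat1 at -0.56 (SE 0.13) on the log2 scale when saline replicates 4 and 5 were left out.

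The mitochondrial enzymes Mthfd1l and Mthfd2 differed in opposite directions. Mthfd1l was at 8.01, 5.75, 6.16, 7.88 and 4.60 FPKM in Atf6+/+ OIR retinas and 3.26 to 4.4 FPKM after saline (log2 fold change 0.72, SE 0.14, adjusted p = 0.00121 by limma). Mthfd2 was at 3.05, 3.06, 4.31, 3.94 and 2.18 FPKM, below every saline library (log2 fold change -1.25, SE 0.32, adjusted p = 0.00521 by limma). Without saline replicates 4 and 5 the values were -0.71 for Mthfd2 (SE 0.19, adjusted p = 0.00988 by limma) and 0.83 for Mthfd1l (SE 0.16, adjusted p = 0.00227 by limma). Mthfd2l, Aldh1l2 and Mthfd1 were not called, with log2 fold changes of 0.10 (SE 0.08), -0.05 (SE 0.23) and 0.11 (SE 0.10). Shmt1 was at 0.72, 0.63, 0.73, 0.78 and 0.80 FPKM (log2 fold change 0.49, SE 0.19, adjusted p = 0.046 by limma), a call that was lost without saline replicates 4 and 5 (0.25, adjusted p = 0.225 by limma).

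Of the 78 partner genes, 33 (42.3%) were called between Atf6+/+ OIR and saline, 7 higher and 26 lower, a smaller share than the 55.5% of all genes. It was 35 (44.9%), 11 higher and 24 lower, when saline replicates 4 and 5 were left out, against 51.5% of all genes. Of all genes, 27.8% were called higher and 27.7% lower. In the serine transport and use list 10 of 14 were called, 3 higher and 7 lower. Slc1a5, a carrier of glutamine, serine and alanine, was at 4.57 ± 0.287 FPKM after saline and 2.24 ± 0.325 in OIR (log2 fold change -1.03, SE 0.10, adjusted p = 8.38e-06 by limma), and Serinc1 was lower, at -0.52. Sdsl, a serine dehydratase-like gene, was higher by 0.61. In the methionine cycle list 1 of 10 was called higher and 5 lower, among them the hydrolase-like gene Ahcyl2 (-0.66, adjusted p = 3.26e-06 by limma), Mat2b (-0.49) and Ahcy (-0.23). Without the same 2 libraries 11 of 14 serine transport genes were called, 4 higher and 7 lower, and 3 of 10 genes of the methionine cycle list, all lower.

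Of the purine synthesis genes 4 of 9 (44.4%) were called, where 55.5% of all genes were (27.8% higher and 27.7% lower). All 4 were lower, among them the trifunctional Gart (-0.42), which takes a formyl group from folate, Pfas (-0.56) and Gmps (-0.30). The glycine cleavage list had 2 called higher and 2 lower of 6, with Dld at -0.52, Gcsh, the lipoyl carrier of the system, at -0.49, and Pipox, a sarcosine oxidase, at 0.58. Single genes were called among the folate carriers (Slc19a1, -0.38), in the folate cycle (Mthfsl, -0.35) and in the mitochondrial tRNA list, where Mtfmt, which formylates the initiator methionyl-tRNA, was higher by 0.48. In the ATF4 list 6 of 22 (27.3%) were called, all lower, where 27.7% of all genes were called lower. The 3 with the smallest p were Cebpg (-0.99), Slc7a3 (-1.22) and Vldlr (-0.25), the last not called with a GC correction (-0.10, adjusted p = 0.0705 by limma). When saline replicates 4 and 5 were left out, 51.5% of all genes, 9 of the 22 ATF4 list genes (5 higher and 4 lower), 4 of 9 purine genes (all lower), 3 of 6 glycine cleavage genes (1 higher and 2 lower) and 3 of 7 folate carriers (all lower) were called, and the folate cycle and tRNA lists had 1 call each.

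Likeness to Shmt2 was measured as Pearson's r of log2 values over the 20 libraries after subtraction of each group's mean, for 12996 genes with a mean of at least 1 FPKM. The 5 most alike were Spindoc (r = 0.90, rho = 0.889), Nfil3 (0.897, 0.851), Jun (0.892, 0.830), Gas2l1 (0.881, 0.798) and Slc1a4 (0.880, 0.899), the last a carrier of serine and alanine. The libraries share depth and composition within an experiment, and an r above 0.8 was reached by 0.508% of the genes. Saline replicates 4 and 5 were the highest P30 libraries for all 5, and over the 18 others r was 0.794 to 0.875. Without the 2 libraries farthest from the median of Shmt2 (Atf6-/- OIR replicate 5 and saline replicate 5), r was 0.780 to 0.860.

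Slc1a4 was at 10.62, 8.64, 7.99, 9.01 and 7.77 FPKM in Atf6+/+ OIR, 6.83, 7.09, 8.39, 6.41 and 8.93 FPKM in Atf6-/- OIR, 6.14, 6.39, 6.33, 11.79 and 14.08 FPKM after saline and 6.28, 5.11, 5.81, 6.71 and 5.98 FPKM after Ceapin-A7. Over the 12996 genes ranked in 20 libraries, the 95th percentile of r with Shmt2 was 0.618. Of the members, Mthfd2 (r = 0.726) and Aldh1l2 (0.553, below that percentile) were most like Shmt2. They were at 0.380 and 0.130 over the 18 libraries without saline replicates 4 and 5. The neighbour Nxph4 had r = 0.766 over 20 and 0.782 over those 18 libraries, and Atf4 had 0.649 and 0.086. Shmt1 had r = -0.549 and -0.323.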

How the data were processed

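The authors sequenced stranded mRNA libraries of whole retinas, aligned reads to GRCm39 with HISAT2 (2.0.4) and deposited FPKM per gene from RSEM (1.2.18). Their DESeq2 (1.4.5) needs counts, which the deposited FPKM do not give, so no count interval was computed. The strand setting is not given in the sources used here. The value of 1 fragment, read from low FPKM with an estimator settled after other forms had been tried, gave relative depths of 0.948 to 1.002 and, lowest, 0.699 for Ceapin-A7 replicate 3.

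FPKM of genes with a mean above 0.1 were divided by median-of-ratios factors, and log2(FPKM + 0.1) was fitted with limma (3.58.1, eBayes with trend, R 4.3.3) in the 10 libraries of each comparison, with Benjamini-Hochberg adjustment over all genes and a call at 0.05. Fold changes are on that log2 scale, which understates those of low genes. The groups came from the labels. Whether libraries came from separate animals is not in the labels, so p-values measure the spread between these libraries. The members and lists were chosen with earlier results of these data known. Named are the members, in each comparison up to 3 called partner genes per list (otherwise the 1 with the smallest p), the 5 genes most like Shmt2, its 3 neighbours on either side, and Atf6. Any further gene was picked with its values known. No per-sample column was left unused. In simulated data with independent errors, 88.5% to 89.5% of 200 genes changed 2-fold were called. Libraries shared no spread there, so these shares are not the power of the fits above. Alternatives were pseudocounts, filters, scalings, limma options, a fit of 20 libraries, a replicate block and each library left out. A GC correction (transcript GC found for at least 97% of genes) and leaving out saline replicates 4 and 5 were added after seeing the data.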

Additional observations from a re-analysis of the deposited data

Results flagged for a closer look

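Mthfd1 in Atf6-/- OIR replicate 2 was at 7.92 FPKM, above the next highest library of its group at 6.41 by 0.766 of the group's range, over Dixon's critical value of 0.71 for 5 libraries. It was the 1 library flagged in 40 groups of 5 (10 genes in 4 groups), and chance flags about 1 in 20 groups.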

How the results depend on the processing

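The Shmt2 difference in OIR (-1.09) lay between -1.19 and -1.01 when 1 library was left out and between -1.11 and -0.98 under the other alternatives. With array weights 15 partner genes were called in OIR and 2772 genes in all, against 0 and 5, and the cause was not tested. Partner genes called in OIR, and members and partner genes called after Ceapin-A7, stayed at 0 with any 1 library left out. Between Atf6+/+ OIR and saline, 5 to 6 members and 29 to 36 partner genes were called with 1 library left out, against 6 and 33. Of all genes, 8034 to 9071 were called, against 8696 (55.5%). Shmt2 is counted among these members, but the OIR arm entered its choice, so its call is no independent evidence. Same-numbered libraries deviated together with r between -0.392 and 0.313 in OIR, -0.375 and 0.455 at P30 and -0.485 and 0.335 between the arms. The numbers thus showed no regular pairing, which this check cannot exclude. The replicate block gave -1.09 for Shmt2 in OIR, 0 partner genes called in OIR, and 0 members and partner genes called after Ceapin-A7. Between the arms it called 5 members (again with Shmt2) and 29 partner genes. Over the alternatives other than leaving out 1 library, the block among them, 7592 to 9505 of all genes were called between the arms. Signs turned for uncalled values, which were small except for Mthfd2 after Ceapin-A7 (-0.46 with all libraries). Without saline replicates 4 and 5 together, Psph (0.07), Mthfd2 (0.09) and Mthfd1l (0.03) turned after Ceapin-A7, and Psph (0.05), Mthfd1 (-0.0037) and Aldh1l2 (0.26) between the arms. With array weights Psph turned to 0.03 after Ceapin-A7. With 1 library left out, Psph ranged from -0.09 to 0.04 after Ceapin-A7 and from -0.11 to 0.03 between the arms (higher without saline replicate 5), Aldh1l2 from -0.17 to 0.09 (0.04 without saline replicate 5 or Atf6+/+ OIR replicate 2, 0.09 without saline replicate 4) and Stat6 in OIR from -0.13 to 0.01 (without Atf6+/+ OIR replicate 1). The call of Shmt1 between the arms (0.49, adjusted p = 0.046 by limma) was lost with a pseudocount of 0.01, no filter, quantile normalization, array weights, the block and 9 of 10 libraries left out in turn. With the GC correction Mthfd2l gained a call (0.26, adjusted p = 0.035 by limma) and Vldlr lost it. Genes called in all in OIR were 11 in the fit of 20 libraries, 8 with the GC correction and 9 without Atf6-/- OIR replicate 5. With a filter at a mean of 1 FPKM, Shmt1 and Slc7a10 were not fitted. Depth limits the low genes, Shmt1 and Slc7a10 above all.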

Other observations

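Among the 45 pairs of members, deviations from the group means correlated with r above 0.5 in 9 pairs over 20 libraries and in 2 pairs over the 18 libraries without saline replicates 4 and 5. The median r of the 45 pairs was 0.115 and 0.109. The share of all gene pairs with an r above 0.5 was not computed, so the counts do not set the members apart. Saline replicates 4 and 5 were the highest P30 libraries in 15.5% of the genes tested there. Phgdh and Psat1, successive enzymes of serine synthesis, had r = 0.727 (rho = 0.741) and 0.674 without those libraries. Mthfd2 and Shmt2 had r = 0.726 (rho = 0.645) and 0.380 without them. These are descriptions of libraries that share an experiment, and no explanation was tested.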
